A study of Mus musculus with 9 samples.

Results

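The p53 transcription factor gene Trp53 and 9 genes listed as its direct targets were followed in mouse embryonic stem (ES) cells and primordial germ cells (PGCs). Agilent arrays with 1 colour channel were used. Whether p53 regulates those 9 genes in these cells was not tested. The 10 genes, Trp53, Mdm2, Mdm4, Cdkn1a, Ccng1, Perp, Zmat3, Sesn1, Polk and Trp53inp1, were found through the RefSeq accession that the array files give each probe. They had 14 probes among the 32450 genes or identifiers measured: Mdm4, Cdkn1a, Polk and Trp53inp1 had 2 probes each and the other 6 genes had 1. Each of 3 groups had 3 arrays. The PGCs were male cells from the genital ridges of E13.5 embryos of the cross MCH x C57BL6/J, dissociated with trypsin and sorted as live single cells positive for Oct4ΔPE-GFP, a transgene that marks germ cells. The Max knockdown ES cells were VV3 cells, a male 129SV line with a Venus reporter under the promoter of the germ cell gene Vasa (Ddx4), and they were sorted as live single Venus-positive cells 3 days after transfection with siRNA against Max, which encodes the DNA-binding partner of Myc. The control ES cells were the same line 3 days after a non-silencing siRNA, sorted as live single cells. The siRNA and the Venus gate thus differ together between the ES groups, VV3 is 1 line, and PGCs differ from both ES groups in strain, tissue and culture as well as in cell type.

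As background, p53 is a sequence-specific transcription factor that is held at a low level by Mdm2, which marks it for degradation, and by Mdm4, which binds its activation domain. After DNA damage or other stress it is released and raises genes that stop the cell cycle, repair DNA, restrain growth or kill the cell, and Mdm2 is itself among its targets, which closes a feedback loop. Mouse ES cells are known to hold abundant p53 protein, and germ cells of the mid-gestation gonad are known for p53-dependent loss of damaged cells. The arrays measure RNA and say nothing of p53 protein, its modification or its binding.

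The promoters of 7 of the 10 genes were found in RefSeq windows of GRCm38.p6 that run from 250 bases before to 50 bases after an annotated start, giving 11 windows because some genes have several starts. Perp, Zmat3 and Trp53inp1 had no window. The 2 windows of the regulator and of its best-known arrest target are shown because Cdkn1a passed the test as lower both in PGCs and in Max knockdown cells against control cells, and Trp53 in PGCs but not in Max knockdown cells. Capitals mark matches to the p53 half-site, the 10-base consensus of p53, and to the E-box CACGTG, the palindrome bound by Myc and Max; both strands were searched, and no half-site overlapped an E-box in these windows.
Cdkn1a, chr17:29090729-29091028, plus strand: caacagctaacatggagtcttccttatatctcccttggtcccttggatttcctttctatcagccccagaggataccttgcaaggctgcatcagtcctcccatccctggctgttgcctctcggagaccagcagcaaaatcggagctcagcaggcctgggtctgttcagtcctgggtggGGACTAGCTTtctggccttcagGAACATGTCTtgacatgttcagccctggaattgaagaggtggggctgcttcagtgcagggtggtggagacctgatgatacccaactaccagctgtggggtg
Trp53, chr11:69580109-69580408, plus strand: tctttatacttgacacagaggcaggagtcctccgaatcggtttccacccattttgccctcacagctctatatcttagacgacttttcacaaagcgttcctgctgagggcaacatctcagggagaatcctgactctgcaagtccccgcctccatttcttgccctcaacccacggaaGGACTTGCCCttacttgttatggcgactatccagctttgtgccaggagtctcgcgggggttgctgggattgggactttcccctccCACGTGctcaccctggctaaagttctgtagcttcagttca

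The Cdkn1a window shown, the upstream one of its 2 windows, held 2 half-sites, whose first bases lay 73 and 51 bases before its start. They were close enough to count as a full site under the rule used (2 half-sites with at most 13 bases between them). The 10 bases directly after the second of them, tgacatgttc, differ from the half-site consensus at the first base only and were not marked. The other Cdkn1a window, chr17:29093519-29093818, lies downstream and held no half-site and no E-box. Which of the 2 starts gives the transcripts read by the Cdkn1a probes was not determined. The Trp53 window held 1 half-site 75 bases before the start and an E-box 10 bases after it. Over all 11 windows, 6 held a half-site, against 8.36% of all 32851 windows, 1 held a full site, against 0.0731%, and 1 held the E-box, against 7.15%. Among 72 windows of the further pathway genes read below, 13 held a half-site, 0 a full site and 9 the E-box. The other half-sites lay in windows of Ccng1, Mdm2, Polk and Sesn1, from 231 to 173 bases before the start, and neither window of Mdm4 held any of these motifs. Polk and Sesn1 each had another window without a half-site. A match describes letters in the window and is not a measured binding site.

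**Figure D1:**
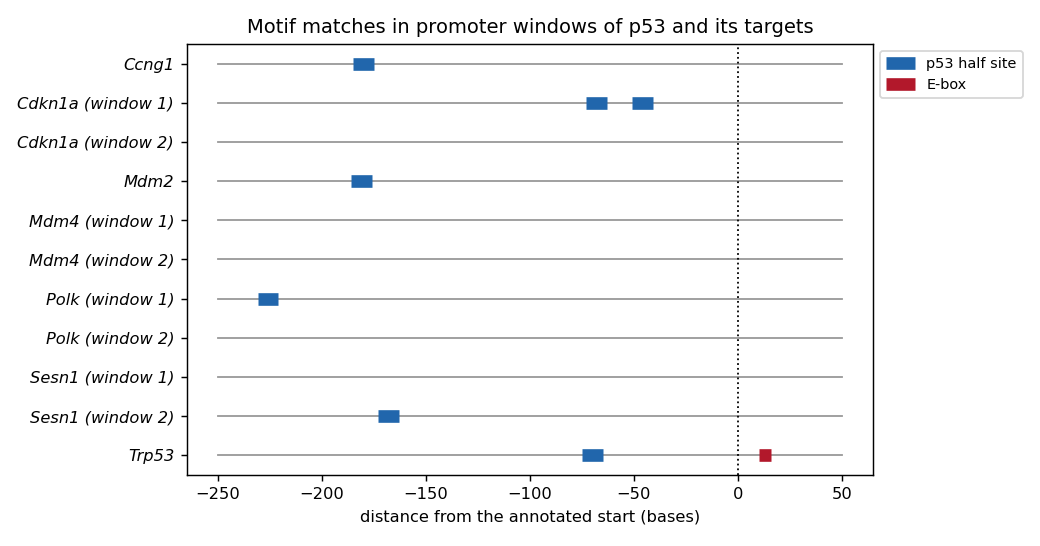
Matches to the p53 half-site and the E-box (CACGTG) in the 11 promoter windows; each line is 1 window, and the x axis gives the distance in bases from the annotated start (dotted). Half-sites lie in 6 windows, and the E-box lies in the Trp53 window only.

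Signals were read as log2 intensity minus the 75th percentile of the array, so that 0 is the level of a spot at that percentile and 1 unit is a doubling; a value compares the same probe between arrays and not 1 gene with another. On each array, 58.2% to 67.6% of the 43020 spots were well above background. Every probe of the 10 genes was well above background on all 9 arrays, except the second probe of Cdkn1a, which was so on 1 of the 3 PGC arrays. Across the 20443 genes tested, with 1 probe each, replicates correlated with r from 0.991 to 0.995. Control with Max knockdown arrays gave r from 0.966 to 0.974, and ES with PGC arrays from 0.866 to 0.882. The targeted gene checked the labels: Max read 0.59, 0.83 and 1.13 in Max knockdown cells and 2.84, 2.74 and 2.85 in control cells, 3.89-fold lower (log2 change -1.96 ± 0.14, SE, n = 3 arrays each; limma adjusted p = 2.93e-05), and 3.77, 3.65 and 3.57 in PGCs. The summed signal of 8 germ cell markers was 114 to 127 times the array's 75th percentile in PGCs, 25.8 to 32.5 in Max knockdown cells and 12.1 to 17.2 in control cells, and that of 8 pluripotency markers was 41.7 to 50.3 in PGCs, 142 to 153 in Max knockdown cells and 131 to 146 in control cells. Markers of other cells are given beside the results below. In sorted bulk RNA, fewer cells of a type and less RNA per cell cannot be told apart.

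Between Max knockdown and control ES cells, 7 of the 10 genes were lower, among them Cdkn1a, Perp and Polk, while no change of Trp53 itself was detected. Perp, Polk, Zmat3, Cdkn1a, Mdm4, Ccng1 and Trp53inp1 fell, by 1.16-fold to 2.05-fold, and Trp53, Mdm2 and Sesn1 did not pass the test. All 7 calls of 10 were falls, beside 40.1% of all 20443 genes tested that were called in either direction and 21.9% that were called lower. The median change of the 10 genes was -0.39 on the log2 scale, against -0.07 over all genes tested. Changes and adjusted p-values come from 1 limma fit of the 3 groups with Benjamini-Hochberg adjustment over all genes tested, a call is an adjusted p under 0.05, errors of changes are SE, and every group has n = 3 arrays. An exact permutation test of 3 arrays against 3 has 0.1 as its smallest p. The smaller values of limma rest on its assumption of normally distributed errors, with the estimate of the spread shared across genes.

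**Figure D2:**
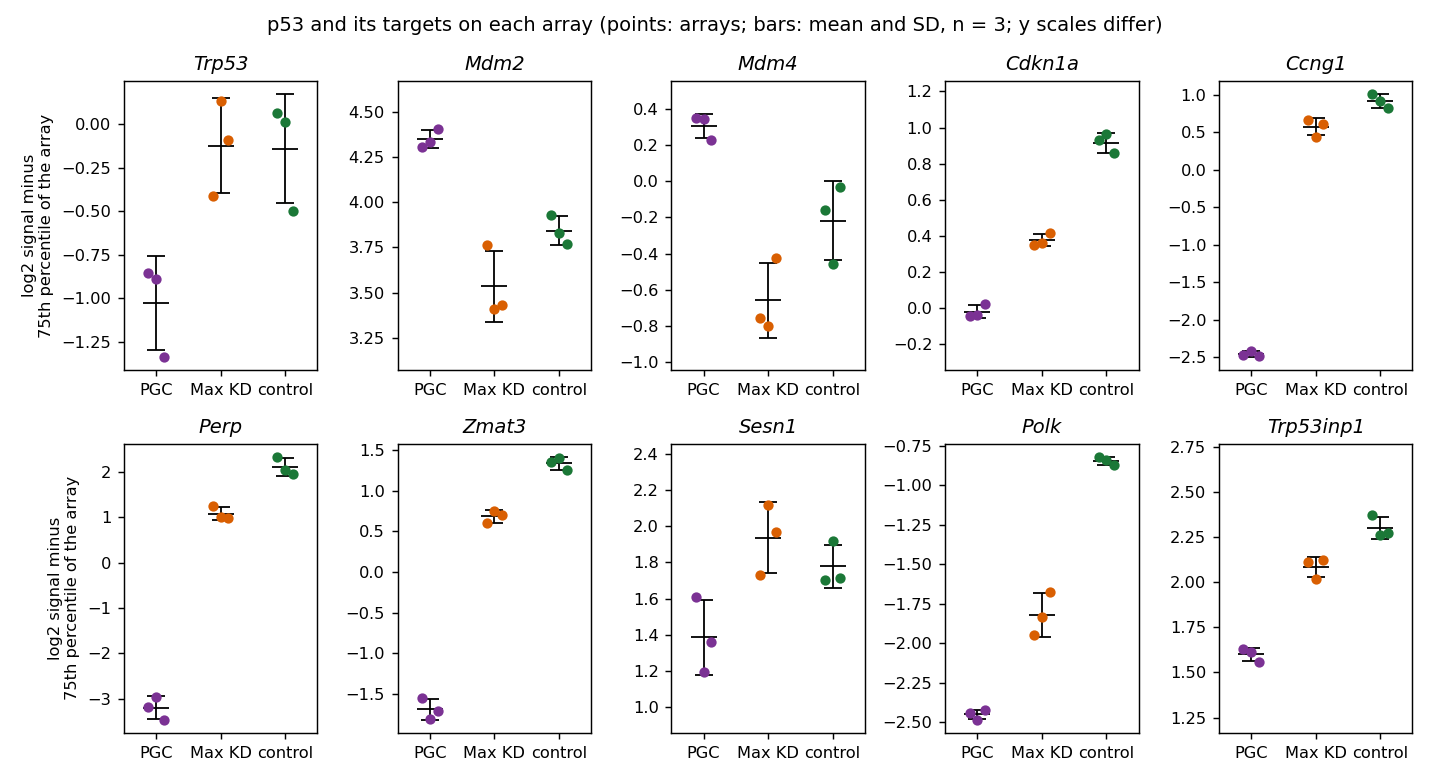
Level of each of the 10 genes on each array, in log2 signal minus the array's 75th percentile (y axis, scale differs by panel), for E13.5 PGCs, Max knockdown ES cells and control ES cells; points are arrays and bars are the mean and SD of 3 arrays. Cdkn1a, Ccng1, Perp, Zmat3, Polk and Trp53inp1 run upward from PGCs through Max knockdown to control cells without overlap, while Trp53 is lower in PGCs than on all ES arrays.

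Trp53 read -0.86, -0.89 and -1.34 in PGCs 1, 2 and 3, -0.41, 0.13 and -0.09 in Max knockdown cells 1, 2 and 4, and 0.06, 0.01 and -0.50 in control cells 1, 2 and 3. The ES groups overlapped throughout and all PGC arrays lay below them. Between the ES groups the log2 change of Trp53 was 0.02 ± 0.21 (adjusted p = 0.957), with a 95% interval of -0.46 to 0.49, so a change of up to about that size was not detectable. Its value was -0.18 within slide 1, which carried replicates 1 and 2 of both ES groups, and 0.41 within slide 2, which carried control 3 and Max knockdown 4.

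Mdm2, the ubiquitin ligase that removes p53, read 4.31, 4.33 and 4.41 in PGCs, 3.76, 3.41 and 3.43 in Max knockdown cells, and 3.93, 3.83 and 3.77 in control cells. The ES groups did not overlap, but Max knockdown array 1 lay just below control array 3. The change between them was -0.31 ± 0.11 and missed the threshold (adjusted p = 0.0542; 95% interval without adjustment, -0.56 to -0.06). Mdm4, the related inhibitor without strong ligase activity of its own, read 0.35, 0.34 and 0.23 in PGCs, -0.75, -0.80 and -0.42 in Max knockdown cells, and -0.16, -0.46 and -0.03 in control cells. Max knockdown array 4 lay above control array 2, so the ES groups of Mdm4 overlapped, and the gene was 1.36-fold lower in Max knockdown cells (-0.44 ± 0.14, adjusted p = 0.0344). The call of Mdm4 was lost without control 1, control 3, Max knockdown 1 or Max knockdown 2. Its second probe gave -0.40 ± 0.12 for the same comparison.

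Cdkn1a encodes p21, the inhibitor of cyclin-dependent kinases through which p53 stops the cell cycle. It read -0.04, -0.04 and 0.02 in PGCs, 0.35, 0.36 and 0.42 in Max knockdown cells, and 0.93, 0.96 and 0.86 in control cells. The 3 groups stood apart with narrow ranges, and Cdkn1a was 1.45-fold lower in Max knockdown cells (-0.54 ± 0.07, adjusted p = 0.000683). A dimmer probe assigned to another RefSeq transcript of Cdkn1a read -4.99, -5.27 and -5.15 in PGCs, -4.32, -4.40 and -3.77 in Max knockdown cells, and -3.20, -3.27 and -3.08 in control cells, with the same order of groups and a change of -0.98 ± 0.17 between the ES groups. Ccng1, which encodes cyclin G1, a target that recruits a phosphatase to Mdm2, read -2.47, -2.41 and -2.48 in PGCs, 0.66, 0.44 and 0.61 in Max knockdown cells, and 1.00, 0.92 and 0.82 in control cells. The ES groups of Ccng1 lay close together without overlap (-0.34 ± 0.09, adjusted p = 0.0164) and PGCs lay far below both. The call of Ccng1 between the ES groups was lost without control 1, control 2 or Max knockdown 2.

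Perp, a membrane protein of desmosomes that acts in p53-dependent death, read -3.19, -2.96 and -3.47 in PGCs, 1.25, 1.01 and 0.99 in Max knockdown cells, and 2.33, 2.05 and 1.96 in control cells. Its highest Max knockdown array lay well below its lowest control array, and it was 2.05-fold lower in Max knockdown cells (-1.03 ± 0.15, adjusted p = 0.0011). Trp53inp1 encodes a nuclear body protein that promotes death and autophagy, and its probe read 1.63, 1.61 and 1.56 in PGCs, 2.11, 2.02 and 2.12 in Max knockdown cells, and 2.37, 2.26 and 2.27 in control cells. The change of Trp53inp1 between the ES groups was small (-0.22 ± 0.08) and just passed (adjusted p = 0.04995), and leaving out any 1 array of these groups took it over the threshold. The call of Trp53inp1 was also lost, among other settings, with slide as a block (adjusted p = 0.0655), with the replicate block (0.112), with quantile normalization (0.0705) and with the mean of its probes (0.259). Its second probe read -0.23, 0.04 and -0.25 in PGCs, -0.70, -0.69 and -0.53 in Max knockdown cells, and -0.62, -0.68 and -0.50 in control cells. On that probe the ES groups overlapped (-0.04 ± 0.11, adjusted p over probes = 0.797) and PGCs lay above them, the opposite of the first probe.

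Zmat3, a zinc finger protein that binds RNA and acts in tumour suppression by p53, read -1.55, -1.80 and -1.72 in PGCs, 0.60, 0.76 and 0.70 in Max knockdown cells, and 1.36, 1.41 and 1.26 in control cells. All Max knockdown arrays lay below all control arrays (-0.65 ± 0.09, adjusted p = 0.000976). Polk, the DNA polymerase kappa that copies past damaged bases, read -2.44, -2.48 and -2.42 in PGCs, -1.95, -1.84 and -1.67 in Max knockdown cells, and -0.82, -0.84 and -0.87 in control cells. Its control arrays differed by less than 0.1 unit and all lay above the others, and it was 1.97-fold lower in Max knockdown cells (-0.97 ± 0.09, adjusted p = 9.91e-05). Its second probe read -4.002, -3.82 and -3.65 in PGCs, -3.76, -3.74 and -4.005 in Max knockdown cells, and -2.77, -3.00 and -2.98 in control cells. The fall of Polk between the ES groups was of like size on both probes (-0.92 ± 0.12 on the second), but on the second probe PGCs and Max knockdown cells overlapped. Sesn1, a sestrin that restrains mTORC1 and lowers peroxides, read 1.61, 1.20 and 1.36 in PGCs, 1.73, 2.12 and 1.97 in Max knockdown cells, and 1.70, 1.92 and 1.71 in control cells. Its ES groups overlapped, with a change of 0.16 ± 0.14 (adjusted p = 0.405; 95% interval, -0.16 to 0.48).

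The direction of each of the 7 calls was the same within both slides that held both ES groups. Within slides 1 and 2, the log2 changes were -1.06 and -0.98 for Perp, -1.06 and -0.80 for Polk, -0.70 and -0.56 for Zmat3, and -0.59 and -0.44 for Cdkn1a, where slide 2 gives 1 array against 1. They were -0.47 and -0.39 for Mdm4, -0.41 and -0.20 for Ccng1, and -0.25 and -0.15 for Trp53inp1. With slide as a block, 6 of the 10 passed. With arrays scaled on the spike-in transcripts, the median change was -0.38 and 0 of the 10 passed (1 at an unadjusted p under 0.05). The spike-in level relative to the 75th percentile was 0.59 to 0.78 on the ES arrays of slide 1 and 1.65 to 1.83 on those of slide 2, and with the slide as a block under that scaling 4 of the 10 passed. Without control 1, or without Max knockdown 2, 4 of the 10 passed. Of all 20443 genes tested, 8205 were called in the main fit, 9548 with slide as a block and 1001 with spike-in scaling. With both spike-in scaling and slide as a block 6882 were called, and 6835 without control 1 and 6716 without Max knockdown 2 under the main scaling. Markers of other cell types moved in the same comparison: 5 of 6 fibroblast genes tested and 5 of 8 primitive endoderm genes were lower in Max knockdown cells, their sums being 1.22 to 1.35 in Max knockdown cells against 3.84 to 5.99 in control cells for the 8 fibroblast genes, and 1.99 to 2.69 in Max knockdown cells against 4.15 to 5.80 in control cells for primitive endoderm. Of blood and endothelium genes 2 of 4 tested were higher and 0 lower, with a sum of 3.03 to 4.08 in Max knockdown cells against 2.49 to 3.09 in control cells, of gonadal somatic genes 2 of 9 were lower and 0 higher, and of stress and immediate-early genes 1 of 9 was higher and 0 lower. Beside these counts, 21.9% of all genes tested were called lower and 18.2% higher. Postn and Lum of the fibroblast list were not well above background on any ES array. The part of these cells in the falls of Perp, Polk, Zmat3 and Cdkn1a was not tested.

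**Figure D3:**
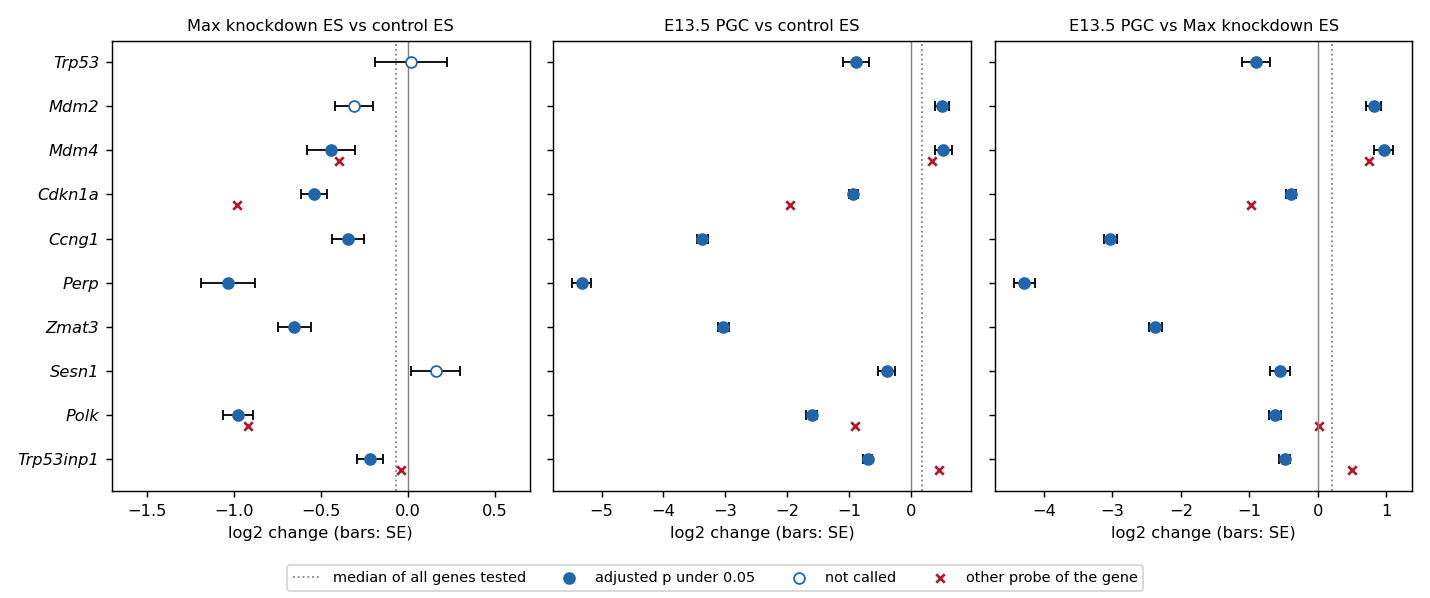
Log2 change of each of the 10 genes in the 3 comparisons (x axis, bars SE), with filled points for an adjusted p under 0.05 and crosses for the second probe of a gene; the dotted line is the median of all genes tested. Perp, Ccng1 and Zmat3 fall far to the left in PGCs, and the crosses of Trp53inp1 lie on the other side of 0 from its first probe.

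Between E13.5 PGCs and control ES cells, Trp53 and 7 of its targets were lower on the probes used, and both of its inhibitors were higher under the main scaling. Perp was 39.9-fold lower, Ccng1 10.3-fold, Zmat3 8.17-fold and Polk 3.04-fold, and Cdkn1a, Trp53, Trp53inp1 and Sesn1 were 1.91-fold to 1.31-fold lower, whereas Mdm2 and Mdm4 were 1.42-fold and 1.44-fold higher, or below 0 with arrays scaled on spike-in transcripts. All 10 genes were called, 8 lower and 2 higher, beside 75.6% of all genes tested called in either direction, 32.4% lower and 43.2% higher. Their median change was -0.91, against 0.18 over all genes. This comparison shares its control arrays with the one between the ES groups, so the directions in both are not independent of each other.

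The log2 changes were -5.32 ± 0.15 for Perp (adjusted p = 2.34e-08), -3.37 ± 0.09 for Ccng1 (adjusted p = 1.70e-08) and -3.03 ± 0.09 for Zmat3 (adjusted p = 3.22e-08). For none of these did a PGC array come within 2 units of an ES array. Polk changed by -1.61 ± 0.09 on its first probe and by -0.91 ± 0.12 on its second. Cdkn1a changed by -0.94 ± 0.07 on its first probe (adjusted p = 4.68e-06) and by -1.96 ± 0.17 on its second probe, which was well above background on 1 of the 3 PGC arrays, so that the size on that probe is limited by background. Trp53 itself changed by -0.89 ± 0.21 (adjusted p = 0.00408), with PGC array 3 the lowest. Sesn1 changed by -0.39 ± 0.14 (adjusted p = 0.0310), a call that was lost without control 2, PGC 2 or PGC 3 and with slide as a random block (adjusted p = 0.0721). Trp53inp1 has no settled direction in PGCs: its first probe gave -0.70 ± 0.08 (adjusted p = 3.72e-05) and its second 0.45 ± 0.11 (adjusted p over probes = 0.00435).

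Mdm2 changed by 0.51 ± 0.11 (adjusted p = 0.00272) and Mdm4 by 0.52 ± 0.14 (adjusted p = 0.00799), with all PGC arrays above all ES arrays for both. Their direction depended on the scaling: on the spike-in transcripts Mdm2 read -0.45 (adjusted p = 0.510) and Mdm4 -0.43 (adjusted p = 0.528), while the median of all genes was -0.78, against 0.18 under the main scaling. Of all genes called, 57.2% were higher in PGCs under the main scaling and 13.45% under the spike-in scaling. Perp, Ccng1, Zmat3, Polk, Cdkn1a, Trp53, Sesn1 and Trp53inp1 were lower under both. The spike-in level relative to the 75th percentile was 1.39 to 2.35 on the PGC arrays, which lay on slides of their own, so that slide, strain and cell type cannot be told apart here.

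**Figure D4:**
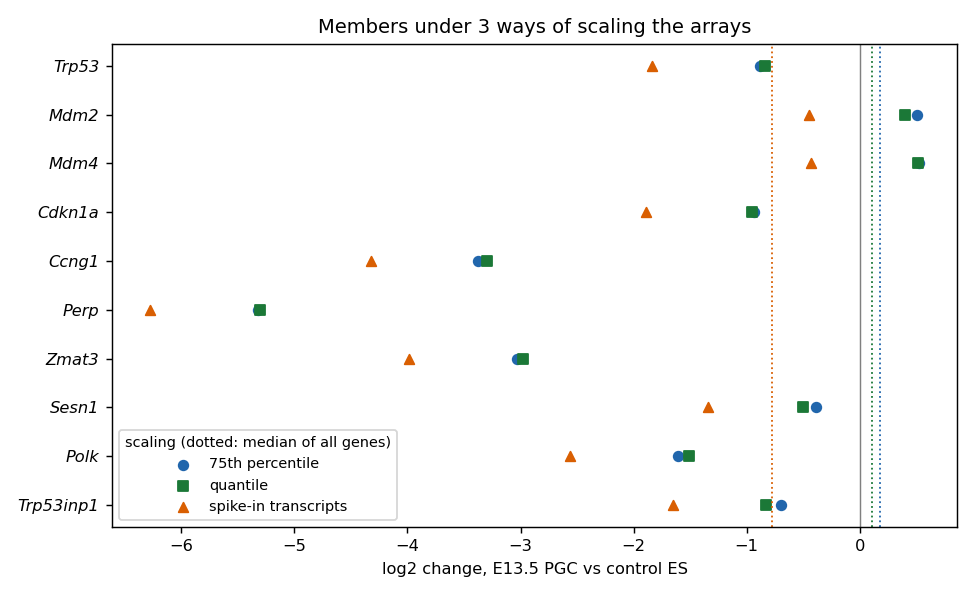
Log2 change of the 10 genes in E13.5 PGCs against control ES cells (x axis) with arrays scaled on the 75th percentile, by quantile normalization or on spike-in transcripts; dotted lines are the median of all genes under each. Mdm2 and Mdm4 cross 0 under the spike-in scaling, and the other 8 genes stay below 0.

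Against Max knockdown ES cells, PGCs had lower Trp53, and Mdm2 and Mdm4 were called higher under the main scaling and not under the spike-in scaling. This comparison shares its PGC arrays with the one against control cells and its Max knockdown arrays with the one between the ES groups. All 10 genes were called, 8 lower and 2 higher, beside 76.3% of all genes tested called in either direction, 31.4% lower and 44.9% higher, and the median change was -0.59, against 0.21 over all genes. Perp was 19.5-fold lower (-4.29 ± 0.15), Ccng1 8.16-fold (-3.03 ± 0.09) and Zmat3 5.20-fold (-2.38 ± 0.09). Trp53 changed by -0.90 ± 0.21 (adjusted p = 0.00360), Sesn1 by -0.55 ± 0.14 (adjusted p = 0.00618) and Cdkn1a by -0.40 ± 0.07 (adjusted p = 0.00102). Mdm2 changed by 0.81 ± 0.11 and Mdm4 by 0.97 ± 0.14; under the spike-in scaling they read -0.15 (adjusted p = 0.845) and -0.00 (adjusted p = 0.999), with the median of all genes at -0.75. Probes of the same gene disagreed for Polk, at -0.63 ± 0.09 on the first and 0.01 ± 0.12 on the second (adjusted p over probes = 0.935), and for Trp53inp1, at -0.48 ± 0.08 and 0.49 ± 0.11, so neither has a settled direction here.

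Markers of other cells also differed between PGCs and control cells. The primitive endoderm sum was 0.488 to 0.584 in PGCs against 4.15 to 5.80 in control cells, with 7 of 8 genes lower and Sox7 and Dab2 not well above background on any PGC array, and the fibroblast sum was 1.15 to 1.43 in PGCs against 3.84 to 5.99 in control cells. The gonadal somatic sum was 4.91 to 9.75 in PGCs against 3.02 to 3.83 in control cells, with 6 of 9 genes higher and 1 lower. The sum of stress and immediate-early genes was 4.11 to 8.49 in PGCs against 11.6 to 13.2 in control cells. In Max knockdown cells the gonadal somatic sum was 2.44 to 3.42 and the stress sum 13.4 to 14.6. Blood and endothelium markers summed to 2.46 to 3.39 in PGCs against 2.49 to 3.09 in control cells. Of fibroblast genes tested, 5 of 6 were lower and 1 higher in PGCs than in control cells. Of stress genes 6 of 9 were lower and 2 higher, and of blood and endothelium genes 2 of 4 were lower and 1 higher. Beside these counts, 32.4% of all genes tested were called lower and 43.2% higher in PGCs against control cells. The part of any of these in the p53 target levels was not tested.

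Beyond the 10 genes, a list of 60 further genes of the pathway was read by role, of which 58 were tested; Trp53cor1 was not matched to a probe, and Rrm2b stayed near background on each array. Roles were taken from textbook knowledge of p53, and whether p53 regulates each listed target in these mouse cells was not tested. Among 40 other genes listed as p53 targets, 13 fell and 3 rose in Max knockdown against control cells, with a median change of -0.31. In PGCs against control cells 28 fell and 5 rose, with a median of -1.06, and against Max knockdown cells 23 fell and 6 rose, with a median of -0.84 (-0.80 with genes not above background at their bound). Each gene was given 1 role, so Ppm1d, a regulator that is also a p53 target, was counted with the regulators. Among 18 regulators, cofactors and family members, 6 rose and 4 fell in Max knockdown against control cells (median 0.14, against -0.07 over all genes). In PGCs 9 rose and 3 fell against control cells (median 0.37, against 0.18 over all genes), and 8 rose and 4 fell against Max knockdown cells (median 0.23, against 0.21 over all genes). The regulators called made up 55.6%, 66.7% and 66.7% of those tested in the 3 comparisons, in the order Max knockdown against control, PGCs against control, and PGCs against Max knockdown cells. The targets called made up 40%, 82.5% and 72.5% in the same order, beside 40.1%, 75.6% and 76.3% of all genes. Those called lower made up 32.5%, 70% and 57.5% of the targets, beside 21.9%, 32.4% and 31.4% of all genes. In PGCs the medians of regulators turned to -0.59 against control cells under the spike-in scaling, as the median of all genes did.

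**Figure D5:**
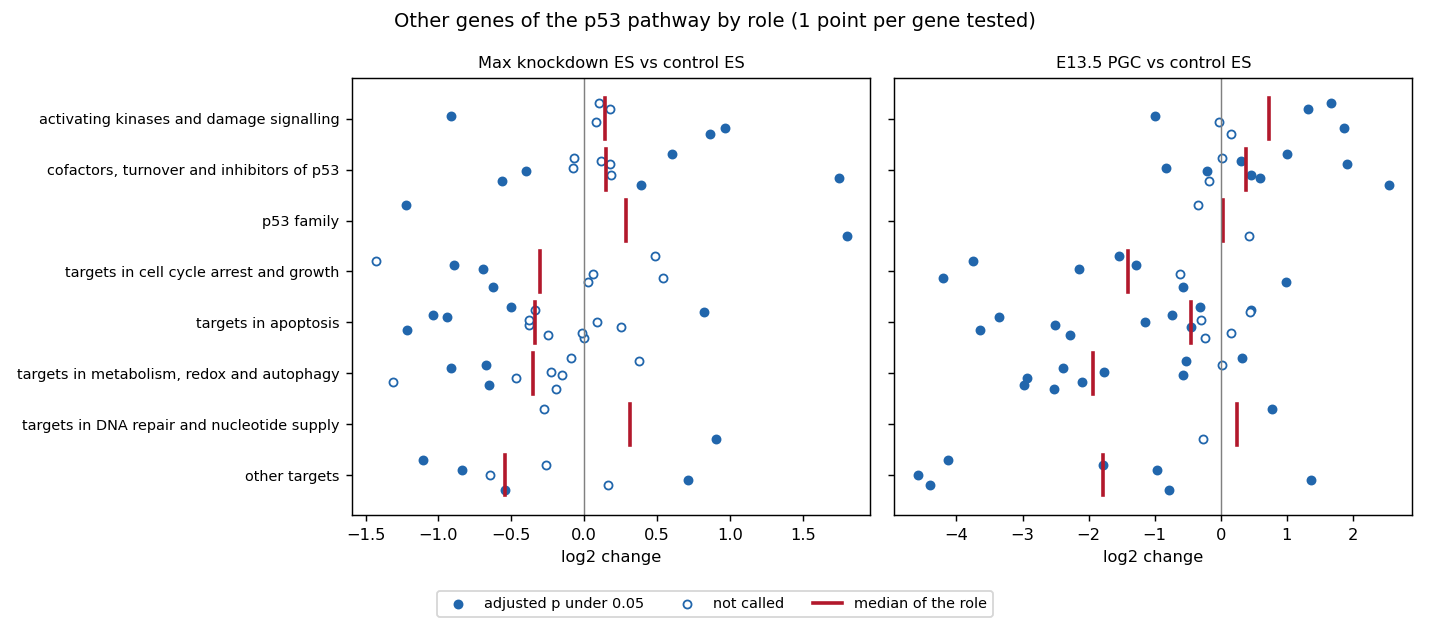
Log2 change (x axis) of the 58 other pathway genes tested, 1 point per gene, by role (rows), with filled points for an adjusted p under 0.05 and red bars for the median of a role. In PGCs against control cells the targets in arrest and growth and in metabolism have medians of -1.41 and -1.93 (-1.46 with genes not above background at their bound), and the activating kinases of 0.74.

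By role, 3 of 8 targets in cell cycle arrest and growth fell and 0 rose in Max knockdown cells, and 6 fell and 1 rose in PGCs, each against control cells. Of 13 apoptosis targets, 4 fell and 1 rose in Max knockdown cells, and 8 fell and 1 rose in PGCs. Bbc3, which encodes the death protein Puma, read -1.21, -0.85 and -1.09 in PGCs, 1.26, 1.37 and 1.51 in Max knockdown cells, and 2.55, 2.67 and 2.57 in control cells. The 3 groups of Bbc3 stood clear of each other: it fell by 1.22 on the log2 scale (± 0.11, adjusted p = 0.000116) in Max knockdown cells and changed by -3.64 ± 0.11 in PGCs, both against control cells. Bax, the pore-forming executioner of the same route, read 3.84, 4.31 and 3.999 in PGCs, 3.90, 3.85 and 3.86 in Max knockdown cells, and 3.91, 3.79 and 3.97 in control cells, overlapped between groups and was called in no comparison (adjusted p = 0.928 for Max knockdown against control cells, 0.247 for PGCs against control cells and 0.204 for PGCs against Max knockdown cells). Of 10 targets in metabolism, redox and autophagy, 3 fell and 0 rose in Max knockdown cells, and 8 fell and 1 rose in PGCs. Of 7 other targets, 3 fell and 1 rose in Max knockdown cells, and 6 fell and 1 rose in PGCs. In Max knockdown cells the shares called were 37.5% for arrest, 38.5% for apoptosis, 30% for metabolism and 57.1% for other targets, beside 40.1% of all genes. Called lower were 37.5%, 30.8%, 30% and 42.9% in the same order, beside 21.9% of all genes. Each role holds few genes and no set test was run, so these counts alone do not set the roles apart from all genes. In PGCs the shares called were 87.5%, 69.2%, 90% and 100%, beside 75.6% of all genes. Called lower there were 75%, 61.5%, 80% and 85.7%, beside 32.4% of all genes. Sesn2, the stress-induced relative of Sesn1, changed by 0.37 ± 0.20 in Max knockdown cells (adjusted p = 0.173) and by -0.53 ± 0.20 in PGCs (adjusted p = 0.0380), against control cells.

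Of 2 genes listed as targets in DNA repair that were tested, 0 fell and 1 rose in Max knockdown cells, and 0 fell and 1 rose in PGCs, each against control cells. Ddb2, which encodes a protein that recognises ultraviolet damage, read -0.18, -0.00 and -0.17 in PGCs, 0.86, 1.04 and 1.26 in Max knockdown cells, and 0.01, 0.08 and 0.37 in control cells. All Max knockdown arrays of Ddb2 lay above all others, and it was 1.87-fold higher there than in control cells (0.90 ± 0.14, adjusted p = 0.00114; 0.91 with adjusted p = 0.558 under the spike-in scaling). Its change in PGCs against control cells was -0.27 ± 0.14 (adjusted p = 0.0967; -1.23 with adjusted p = 0.0418 under the spike-in scaling). Xpc, the damage sensor of global genome repair, changed by -0.27 ± 0.10 in Max knockdown cells (adjusted p = 0.0572) and was 1.71-fold higher in PGCs (0.78 ± 0.10, adjusted p = 0.000109), both against control cells, but read -0.18 in PGCs under the spike-in scaling (adjusted p = 0.812).

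The p53 relatives moved apart in Max knockdown cells. Trp63, which encodes the oocyte and epithelial factor p63, read 1.30, 1.22 and 1.16 in PGCs, 3.05, 2.47 and 2.27 in Max knockdown cells, and 0.84, 0.70 and 0.85 in control cells, and was 3.48-fold higher in Max knockdown cells (1.80 ± 0.18, adjusted p = 0.000162). The mean of its probes gave 1.19 for that comparison, and its probes disagreed in PGCs, where the probe used changed by -1.37 against Max knockdown cells and the mean of the probes by 0.43. Trp73, which encodes p73, read -3.75, -3.45 and -3.48 in PGCs, -4.71, -4.25 and -4.34 in Max knockdown cells, and -3.31, -3.29 and -3.02 in control cells. All Max knockdown arrays of Trp73 lay lowest, and it was 2.34-fold lower there than in control cells (-1.22 ± 0.15, adjusted p = 0.000432). Also among the 3 strongest rises and falls called in the list in Max knockdown cells, Crebbp, an acetyltransferase that modifies p53, was 3.35-fold higher (1.74 ± 0.18), Atr, a kinase of replication stress, was 1.95-fold higher (0.96 ± 0.13), and Tap1, a peptide transporter for antigen presentation, was 2.15-fold lower (-1.10 ± 0.26).

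In PGCs the strongest rises of the list were in genes that act on p53. Cdkn2a, which encodes Arf, an inhibitor of Mdm2, besides the Cdk inhibitor Ink4a, read 2.65, 2.97 and 2.89 in PGCs, 0.79, 0.77 and 0.46 in Max knockdown cells, and 0.40, 0.29 and 0.17 in control cells. It was 5.85-fold higher in PGCs than in control cells (2.55 ± 0.13, adjusted p = 3.48e-07); which of its transcripts the probe reads was not determined. Ppm1d, a phosphatase and p53 target that switches p53 signalling off, read 0.98, 0.83 and 0.98 in PGCs, -0.63, -0.93 and -0.86 in Max knockdown cells, and -0.95, -1.08 and -0.92 in control cells. It was 3.77-fold higher in PGCs than in control cells (1.91 ± 0.10), while the ES groups overlapped. Atr was 3.65-fold higher in PGCs (1.87 ± 0.13), and under the spike-in scaling the changes were 1.59 for Cdkn2a (adjusted p = 0.00638), 0.96 for Ppm1d (adjusted p = 0.123) and 0.91 for Atr (adjusted p = 0.146), so that only Cdkn2a of the 3 passed. Against Max knockdown cells Trp53bp1, a damage mediator that binds p53, was 2.96-fold higher on the probe used, and the mean of its probes gave a change of 0.12.

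Within the list of other pathway genes, the strongest falls in PGCs against control cells were those of Gdf15, Epha2 and Gadd45a. Gdf15, a secreted stress cytokine, read -4.44, -3.97 and -4.61 in PGCs, 0.05, -1.08 and -0.17 in Max knockdown cells, and 0.17, 0.06 and 0.51 in control cells, and was 24.0-fold lower in PGCs than in control cells (-4.59 ± 0.30, adjusted p = 1.44e-06). Epha2, an ephrin receptor, read -0.80, -0.32 and -0.54 in PGCs, 3.94, 4.10 and 4.002 in Max knockdown cells, and 3.90, 3.69 and 3.96 in control cells. Its ES groups overlapped, and in PGCs it was 21.1-fold lower than in control cells (-4.40 ± 0.13, adjusted p = 2.83e-08). Gadd45a, a growth arrest gene induced by damage, read -2.79, -3.55 and -4.04 in PGCs, 1.61, 1.15 and 1.08 in Max knockdown cells, and 0.86, 0.77 and 0.60 in control cells. It was 18.4-fold lower in PGCs than in control cells (-4.20 ± 0.29) and 26.7-fold lower than in Max knockdown cells (-4.74 ± 0.29). Gadd45a lay higher on all Max knockdown arrays than on all control arrays, and that change did not pass the test (0.54 ± 0.29, adjusted p = 0.174).

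The genes whose pattern over the 9 arrays was most like that of Trp53, by Euclidean distance between values centred on each gene's mean among 14444 genes with a symbol, were Iqgap3 (0.449), Sdf2l1 (0.519) and Mthfd1 (0.527). For Cdkn1a they were Ola1 (0.196), Plekha3 (0.196) and Troap (0.216). Iqgap3 averaged 0.25 in PGCs, 1.04 in Max knockdown cells and 1.09 in control cells, and Ola1 averaged 2.23 in PGCs, 2.65 in Max knockdown cells and 3.17 in control cells. The points share arrays and groups, and the distances are a description.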

How the data were processed

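Total RNA of sorted cells (100 ng) was labelled with Cy3 and hybridised with spike-in transcripts, 3 biological replicates per group per the series' design text. The scanner files hold intensity per spot from Agilent Feature Extraction 10.7.3.1, background-subtracted and detrended by the authors' extraction, per the file headers. The deposited value table gives log2 values, and its column medians were -0.02, -0.12, -0.07, 0, 0, 0, 0, 0.34 and 0.39. It was compared with the scanner values minus the array's 75th percentile, after each probe was centred on its median over the arrays. The deposited values ran with these centred values (r at least 0.9999 across probes), so they follow that scale and centring closely. The deposited table was used only as an alternative. The number of arrays limits the precision.

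Here, control spots and 65 probes with an outlier flag were left out, and spots of a probe were averaged. The log2 signal minus the array's 75th percentile was fitted with limma 3.58.1 in R 4.3.3 (lmFit, eBayes), with Benjamini-Hochberg adjustment. Of 39364 probes, 26012 were named through RefSeq accessions of GRCm38.p6; the array headers give mm9, so only names and promoter windows were taken. A gene took its probe with the highest mean over arrays, and was tested if every array of 1 or more groups had it well above background (20443 genes). Second probes were adjusted over probes. A marker sum adds linear signals divided by the array's 75th percentile.

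The genes and lists were chosen with earlier results of these data known. Named besides the 10 genes were Max, the 3 strongest rises and falls of the pathway list in each comparison, Trp63, Trp73, Sesn2, Ppm1d, Bbc3 and Bax, and the 3 genes nearest to Trp53 and to Cdkn1a. Gadd45a between the ES groups, Ddb2 and Xpc were described after their values were seen. On simulated arrays of Max knockdown against control cells with 20443 genes, 50 genes were given each of the log2 changes -1, 0.5, 1 and 2. The fit called 24% of changes of 0.5, 68% of changes of 1 and of -1, and 94% of changes of 2, with 8 false calls among 135. In the data 40.1% of genes were called, and the adjusted threshold depends on how many genes change. These rates thus describe the simulated setting and not the detection rate in the data. Alternatives were other scalings, background corrections, filters, probe rules, fits, the deposited table, slide and replicate blocks, and leaving out each array.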

Additional observations from a re-analysis of the deposited data

How the results depend on the processing

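Of the 10 genes, 7 were called between Max knockdown and control cells, and this count was the least stable: it was 0 with spike-in scaling, 1 with normexp on median signals, 4 with no filter on dim genes, within slide 1, or with spike-in scaling and slide as a block, and 4 to 6 with 1 array left out. In the same comparison 26 genes of the pathway list were called, against 2 with spike-in scaling, 4 with normexp and 23 to 25 with 1 array left out. Max changed by -1.96 there, by -1.73 within slide 2 and by -2.10 to -1.83 with 1 array left out. With normexp, the calls in PGCs fell to 6 of the 10 genes and 25 of the pathway list against control cells, and to 6 and 26 against Max knockdown cells; with 1 array left out they were 9 to 10 and 41 to 43, and 10 and 40 to 45. Fitted without the 14 spots at or below background, an alternative chosen after seeing the data like the spike-in scaling with slide block, normexp gave 6, 10 and 10 of the 10 genes. All genes called numbered 1001 with spike-in scaling and 882 with normexp between the ES groups, against 8205, and 71.2% and 63.8% of them were higher, against 45.3%. With no filter on dim genes 6539 of 32450 were called there, and within slide 1 5833 of 20443. In PGCs, normexp called 6012 of all genes against control cells and 7189 against Max knockdown cells, where the main fit called 15451 and 15593. Of all genes called in PGCs against Max knockdown cells, 12.2% were higher with spike-in scaling, against 58.8%. Signs turned for Mdm2 and Mdm4 with spike-in scaling, to -0.45 and -0.43 against control cells and to -0.15 and -0.0011 against Max knockdown cells, and for Trp53inp1 with the mean of its probes, to 0.0048 against Max knockdown cells; the cause was not tested beyond the probes of Trp53inp1 running opposite ways. With the replicate block the calls were 6, 9 and 7 of the 10 genes, 30, 44 and 37 of the pathway list, in the order Max knockdown against control, PGCs against control, and PGCs against Max knockdown cells, and Max changed by -2.08. Calls over all genes with that block numbered 7423, 14825 and 13409 in the same order. The ES groups share only numbers 1 and 2, all on slide 1, so the numbers were not taken as pairs; deviations of the same number correlated at 0.37 and 0.39 there, those of different numbers at -0.03 and -0.07, control 3 and Max knockdown 4 on slide 2 at 0.51, and same-number PGC and control arrays between -0.03 and 0.02, a hint from the data and not from the design. Of the other alternatives, quantile normalization, the filter on 9 arrays, the mean of probes, the intensity trend, fits of 2 groups and the deposited table kept each count within 1.5 times. Signal over background limits the second probe of Cdkn1a and 8 of the 58 pathway genes tested, of which Eda2r, Dram1 and Tap1 were well above background on 0 of the 3 PGC arrays, and Plk2, Rprm, Fas, Pank1 and Rap2b on 1.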
